A study of Mus musculus with 7 samples.

Results

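Intergenic open-sea sites are single cytosines that the authors annotated as lying between genes and outside CpG islands and their shores. The set described here holds every such site whose nearest listed transcript start was under 50 kb away. It counted 3491 of the 18189 sites (19.2%) of the table that holds the Uhrf1 rescue experiment and, taken apart, 4595 of the 21989 sites (20.9%) of the table that holds the Mof knockdown. The rule uses annotation and distance and no methylation value, but it was set with earlier results of these data known. The member nearest to the limit lay 49978 bp from its transcript start in the rescue table, and the first site left out lay at 50010 bp. A further 618 sites there, and 721 among those listed for the knockdown, met the same annotation at 50 kb or more.

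Methylation was measured by reduced representation bisulfite sequencing (RRBS) of genomic DNA from J1 mouse embryonic stem cells, grown in serum with leukemia inhibitory factor. RRBS sequences short restriction fragments, and bisulfite turns unmethylated cytosines into bases read as T, so a methylated cytosine is one still read as C. The 7 libraries were wild type (2 libraries), Uhrf1-/- (2), Uhrf1-/- with wild-type human UHRF1 (wild-type UHRF1 rescue, 1), Uhrf1-/- with human UHRF1 carrying K667R, K668R and K670R (3KR rescue, 1), and a stable Mof knockdown (1). Both rescues were flag-myc-tagged transgenes, and the series design describes selection with hygromycin and picking of single colonies, so each rescue library stands for 1 picked line. The groups with 1 library have no replicate check and no SD. The labels do not say whether libraries of one group came from separate cultures, so the spread behind each SD and p-value may be only technical.

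After replication the new DNA strand is unmethylated. UHRF1 binds such hemimethylated CpGs, ubiquitinates histone H3 and brings in DNMT1, the maintenance methyltransferase, which copies the mark to the new strand. MOF, encoded by Kat8, is a lysine acetyltransferase best known for histone H4, and the series title concerns its acetylation of UHRF1. Lysine to arginine changes keep the positive charge but cannot be acetylated. Open-sea DNA between genes is CpG-poor and is usually methylated in mouse cells, unlike CpG islands.

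Few of these sites lie near a RefSeq transcription start, and 5 RefSeq promoter windows of 300 bases (250 before to 50 after a start, build GRCm38.p6, which is mm10) held 11 site entries, all at starts of long noncoding RNA genes. The 3 windows printed show what the sites look like in sequence and are the ones with several measured sites or with a site in both tables. Measured CpGs are in capitals, on the plus strand, 5′ to 3′.
1700064F23Rik: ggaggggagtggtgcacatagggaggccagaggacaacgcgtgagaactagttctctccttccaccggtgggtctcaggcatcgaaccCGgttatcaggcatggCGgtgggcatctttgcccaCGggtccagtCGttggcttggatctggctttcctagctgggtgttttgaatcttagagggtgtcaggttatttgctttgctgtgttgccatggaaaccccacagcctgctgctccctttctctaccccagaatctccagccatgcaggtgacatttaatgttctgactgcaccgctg
Gm40281: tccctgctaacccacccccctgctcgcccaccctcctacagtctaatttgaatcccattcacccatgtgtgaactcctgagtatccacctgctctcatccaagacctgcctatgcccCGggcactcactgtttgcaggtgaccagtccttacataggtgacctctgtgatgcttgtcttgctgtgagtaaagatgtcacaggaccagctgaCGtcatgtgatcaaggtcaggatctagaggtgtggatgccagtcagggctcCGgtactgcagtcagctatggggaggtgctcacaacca
Gm39842: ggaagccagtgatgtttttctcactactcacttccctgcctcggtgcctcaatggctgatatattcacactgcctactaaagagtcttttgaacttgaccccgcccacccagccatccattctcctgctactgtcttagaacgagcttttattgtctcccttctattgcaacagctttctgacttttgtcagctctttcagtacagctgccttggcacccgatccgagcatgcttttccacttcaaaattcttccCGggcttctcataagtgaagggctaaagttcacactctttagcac

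The window of 1700064F23Rik spans chr8:110006275-110006574 and holds 9 CpGs, of which 4 were measured in the knockdown table. At the first, 162 bp before the start, methylation was 100% of 6 and 100% of 18 reads in wild type and 66.7% of 6 reads in the Mof knockdown (Wilson 95% interval 30 to 90.3). The second, 146 bp before the start, had 66.7% of 6 and 100% of 17 reads in wild type and 100% of 6 in the knockdown. The third, 127 bp before it, had 66.7% of 6 and 88.9% of 18 reads, then 80% of 5. Neither was below both wild-type libraries. At the fourth, 117 bp before the start, wild type had 66.7% of 6 and 94.1% of 17 reads and the knockdown had 0 of 6 reads, which allows up to 50%. The window of Gm40281 spans chr5:35229580-35229879 and had 3 measured CpGs. The one 133 bp before the start was methylated in 6 of 6 reads of each wild-type library and in 4 of 10 reads (40%, interval 16.8 to 68.7) of the knockdown. The one 39 bp before the start was at 100% of 6 reads in each wild-type library and at 66.7% of 12 reads in the knockdown (interval 39.1 to 86.2). The one 12 bp after the start had no methylated read in any of the 3 libraries, with 6, 6 and 11 reads. Those counts allow up to 50%, 50% and 27.3%. The CpGs 39 bp before and 12 bp after the start, which are neighbours, thus read at opposite ends of the scale in wild type, on 6 reads each. The window of Gm39842 spans chr2:70838679-70838978, and its 1 measured CpG, 6 bp after the start, had 0 methylated reads in all 7 libraries at 5 to 49 reads each. These intervals and limits describe counting error alone, because no molecular identifiers mark the reads. The letters CCGG, which read the same on both strands, occurred in 3 of the 5 windows with a member and in 52.8% of all 32851 windows. Of the listed sites of any class that fell in a RefSeq window, 559 of 559 in the rescue table and 614 of 616 in the knockdown table were CpGs. Those checked include 1 and 10 members.

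The label fits the authors' annotation, but not every member is intergenic by RefSeq. By that annotation 417 members (11.9%) of the rescue table lay inside a RefSeq gene, 80 of them in a protein-coding gene and 337 in noncoding genes only. The same held for 529 members (11.5%) of the knockdown table. The median distance to the listed start was 10773 bp, with 2006 members upstream and 1485 downstream. Listed transcripts carry Ensembl identifiers. For 1101 members the listed start lay within 500 bp of a RefSeq start on the same strand, for 1434 it lay inside a RefSeq gene, and for 956 it matched neither. Sites named below by a gene are named by that listed transcript, and the distance says nothing about which gene they act on.

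Each table lists sites with at least 5 reads in every one of its libraries. The median member had 8 and 18 reads in the libraries of wild type, 12 and 10 in those of Uhrf1-/-, 25 in the wild-type UHRF1 rescue, 14 in the 3KR rescue and 10 in the Mof knockdown. With 10 reads a single read moves a site by 10 points, so single-site values are coarse. The wild-type libraries differed by a median of 12.5 points per member and the Uhrf1-/- libraries by 9.09 points. Library levels below are unweighted means of site percentages. Sites were also joined into regions, runs of listed sites with gaps of at most 200 bp, and a region was used where at least 3 of its sites had 10 reads in each library compared.

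Loss of Uhrf1 removed most of the methylation of these sites. Mean methylation was 63.6% and 65.9% in the wild-type libraries and 12.4% and 12.5% in the Uhrf1-/- libraries. The group means were 64.7% ± 1.59 (SD, n = 2) and 12.5% ± 0.0936 (SD, n = 2), a difference of -52.3 points, many times the gap between libraries of a group. What was left in Uhrf1-/- was 19.2% of the wild-type level. The means carry no test: with 2 libraries a group, the smallest p of an exact permutation test is 0.33. Each of the 19 autosomes was lower in Uhrf1-/-, with differences from -56.1 points (chromosome 8) to -47.5 (chromosome 19).

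The shape of the distribution changed as well as its mean. Sites over 80% methylated made up 43.3% and 46.9% of members in wild type and 0.201% and 0.487% in Uhrf1-/-. Sites under 20% went from 19.6% and 17.3% to 72.4% and 71.7%. The 2 Uhrf1-/- libraries were alike in these shares, and neither came near a wild-type library.

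**Figure D1:**
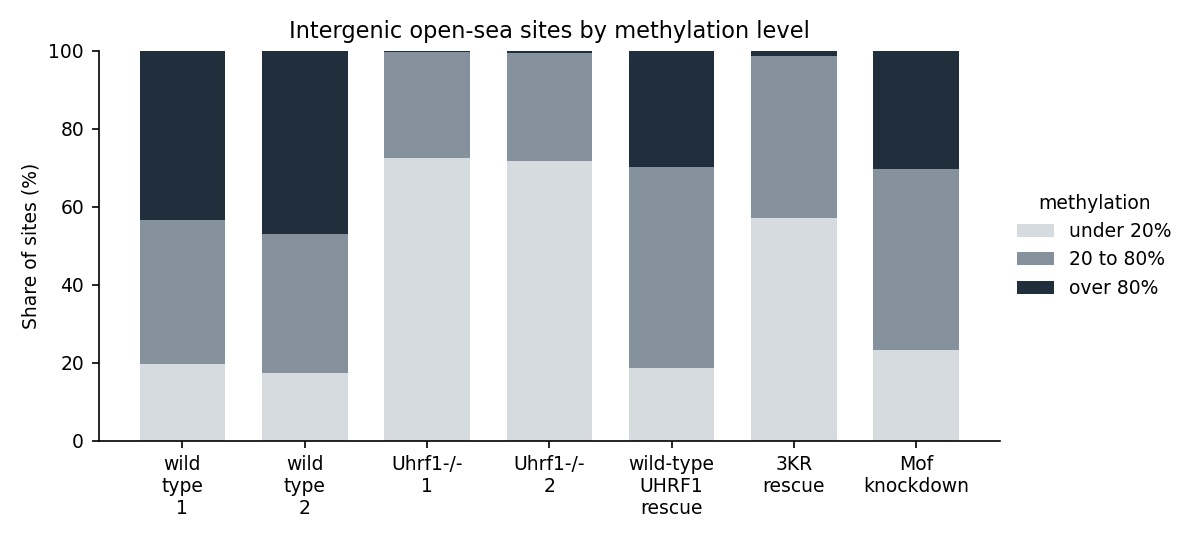
Share of intergenic open-sea sites (vertical axis, percent of sites) under 20%, from 20 to 80% and over 80% methylated, 1 bar per library; the Mof knockdown bar is over the 4595 sites of its own table and the others over 3491. The darkest class falls from 43.3% and 46.9% in wild type to under 1% in Uhrf1-/- and stands at 29.9% in the wild-type UHRF1 rescue, 1.35% in the 3KR rescue and 30.4% in the Mof knockdown.

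Counted by size alone, 588 of 750 members with 10 reads in the 4 libraries (78.4%) were at least 20 points lower in Uhrf1-/-, beside 54.6% of all sites, and 0 were that much higher, beside 0.0652%. Between the libraries of a group such differences went both ways. Wild-type library 2 was lower than library 1 at 158 of 1349 members and higher at 204, beside 9.07% and 13.3% of all sites. For Uhrf1-/- the counts were 184 and 188 of 1672, beside 7.55% and 8.41%.

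Single members were tested with the quasi-likelihood method of edgeR, which models methylated against unmethylated reads, over all 4603 sites of the table that had those reads. At an adjusted p under 0.05 and a difference of 20 points, 357 of 750 members (47.6%) were lower in Uhrf1-/- and 0 were higher, beside 32.4% lower among all sites tested. Before adjustment (p under 0.05) edgeR had 474 members lower and 2 higher, beside 2007 and 15 of all 4603 sites. limma on percentages called 312 lower and 0 higher at the same limits, beside 1349 and 3 of all. Before adjustment limma had 469 lower and 5 higher, beside 1994 and 44 of all. These site calls need all 4 libraries: with any 1 left out, nearly all of them were lost, among members and among all sites alike. The mean difference over members then stayed between -53.4 and -51.2 points.

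Regions gave a firmer count. edgeR called 92 of 110 member regions (83.6%) lower in Uhrf1-/- and 0 higher, beside 58.1% lower among all 659 regions tested. The 94 with an unadjusted p under 0.05 in edgeR were all lower, as were the 424 such regions among all 659. Among the 92 called regions the median difference was -63.4 points, with a range from -93.3 to -20.8. Of the 18 not called, 13 were under 20% methylated in wild type and the most methylated stood at 38.8%. Both Uhrf1-/- libraries lay below both wild-type libraries in 101 of the 110, beside 69.8% of all regions. Leaving out 1 library lowered the number of called regions, among members and among all regions alike, but far less than for sites. At a minimum of 5 reads edgeR called 1125 of 3491 members (beside 23.5% of all sites) and 429 of 530 member regions (beside 62.8%) lower.

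**Figure D2:**
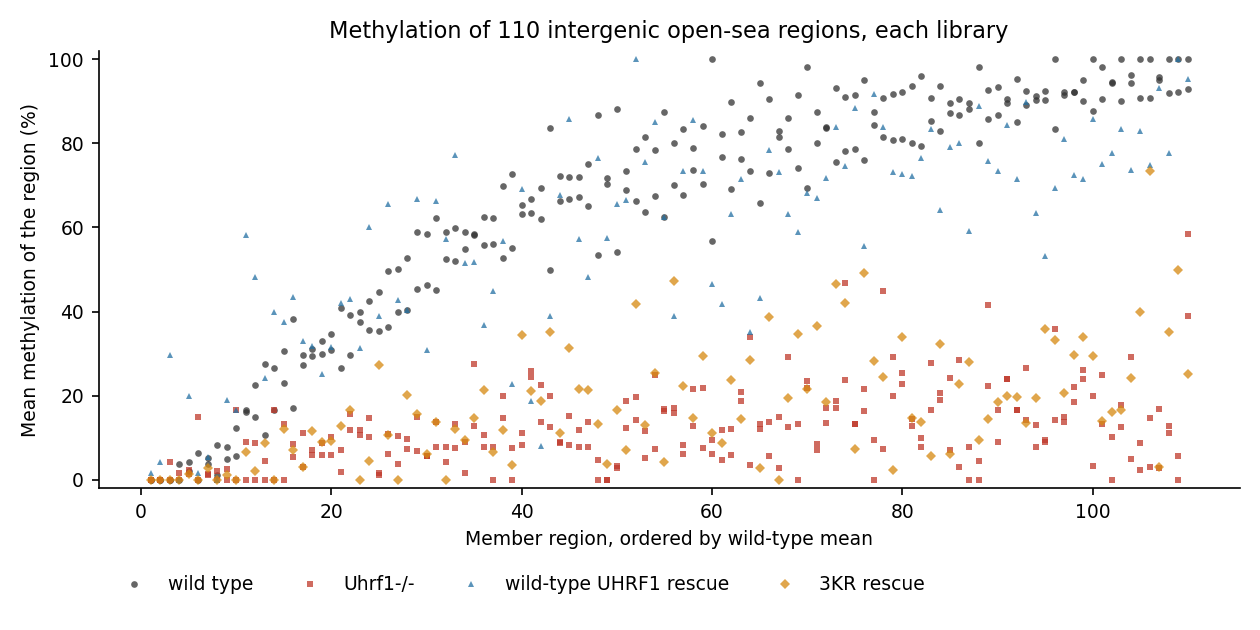
Mean methylation (percent) of the 110 member regions with at least 3 sites of 10 reads in the wild-type and Uhrf1-/- libraries, ordered by their wild-type mean, with 1 symbol per library; rescue values use the same sites at any depth. Wild-type points climb from 0 to 100% while Uhrf1-/- points stay mostly under 30%, wild-type UHRF1 rescue points follow the wild type and 3KR points lie near Uhrf1-/- with a few exceptions.

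The 6 called regions with the largest falls had wild-type means from 89.0% to 96.1%, a high level that falls of this size require. A region (chr4:145458184-145458238, 3 sites, 30 to 51 reads per library) lay 2553 bp downstream of the start of a transcript that begins inside Gm13223. It was at 100% and 92.2% in wild type and at 5.56% and 0% in Uhrf1-/- (edgeR adjusted p = 8.5e-05). A region upstream of a transcript that starts inside Olfr289-ps1, an olfactory receptor pseudogene (chr3:6799425-6799498, 5 sites), went from 100% and 90.8% to 8.79% and 2.22% (edgeR adjusted p = 7.7e-10). A region 30130 bp upstream of a transcript that starts inside Insr, the insulin receptor gene (chr8:3309746-3309849, 5 sites), went from 94.3% and 94.6% to 10.3% and 0% (edgeR adjusted p = 7.9e-11). A wide gap and no overlap between the libraries of the groups were conditions of the choice, and a wide gap requires a high wild-type level. None of these is a result about these regions. The others were a region with no RefSeq match on chromosome 7 (chr7:79571670-79571757), one by Epc1, which encodes a subunit of an acetyltransferase complex (chr18:6429711-6429773), and one 2587 bp upstream of Dusp2, a phosphatase of MAP kinases (chr2:127333433-127333572, inside the long noncoding RNA gene Gm46762). Their differences were -86.8, -86.6 and -85.6 points.

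Most regions kept little methylation. Of the 110 regions, 14 were under 5% in both Uhrf1-/- libraries and 8 were over 20% in both, while 34 were over 80% in both wild-type libraries. The 4 regions with the highest Uhrf1-/- means were chosen on those values and are given as a description. The region by Emid1, which encodes an extracellular matrix protein (chr11:5166602-5166629, 3 sites), kept 58.3% and 39.0% in Uhrf1-/- beside 100% and 93.0% in wild type. The region by Erbin, which encodes a scaffold protein that binds ERBB2 (chr13:103927598-103927674, 3 sites), kept 23.7% and 46.9% beside 90.9% and 78.2%. The region by Csta1, a cystatin gene (chr16:36111152-36111164), had 7.41% and 44.9% in the Uhrf1-/- libraries, so its high mean rests on library 2 alone. All 4 (Gm36536 was the other) remained below both wild-type libraries.

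Members that kept methylation in one Uhrf1-/- library were only partly the ones that kept it in the other. The 283 members at 40% or more in library 1 averaged 27.4% in library 2, and the 1705 members at 0% in library 1 averaged 7.38%. The former averaged 84.5% and 84.6% in the wild-type libraries and the latter 53.0% and 55.4%. Choosing instead on library 2 gave 26.5% and 8.09% in library 1. Sites high in Uhrf1-/- were high in wild type. Members over 80% in wild-type library 1 (1512 sites) averaged 85.1% in library 2 and 16.8% and 17.2% in Uhrf1-/-, and members under 20% in that library (684 sites) averaged 15.8%, then 3.76% and 4.01%.

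Wild-type human UHRF1 brought most of the methylation back. The wild-type UHRF1 rescue averaged 57.7%, 45.3 points above Uhrf1-/-, a gain that is 86.5% of the difference between wild type and Uhrf1-/-. At 10 reads in all libraries compared, 1202 of 1545 members (77.8%) were at least 20 points above the Uhrf1-/- mean, beside 61.0% of all sites, and 2 were at least 20 points below, beside 0.122%. A size count of this kind is no test. On the chromosomes, the gain over Uhrf1-/- ran from 40.9 to 51.5 points.

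The wild-type UHRF1 rescue did not reach the wild-type level at these sites. Of 1287 members with enough reads, 334 (26.0%) were at least 20 points below the wild-type mean, beside 17.0% of all sites, and 91 (7.07%) were at least 20 points above, beside 8.56%. Without wild-type library 1, 779 of 2714 members (28.7%, beside 22.4%) were that much below. Its difference from wild type was -7.04 points at members, -6.65 at intergenic open-sea sites beyond 50 kb, -6.64 in introns, -5.20 in exons and -2.48 in promoters outside islands. These class differences were not tested, since 1 library gives no spread. Against either wild-type library alone the member difference was -8.17 or -5.91 points. Every autosome was below wild type, by differences from -11 points to -0.370 (chromosome 10). Fewer members were fully methylated: 29.9% of sites were over 80% in the rescue, while the share under 20% (18.6%) lay between those of the wild-type libraries.

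The 3KR rescue stayed close to Uhrf1-/-. It averaged 19.7%, 38.0 points below the wild-type UHRF1 rescue and 7.28 points above the Uhrf1-/- mean, or 13.9% of the difference between wild type and Uhrf1-/-. At 10 reads in both rescues, 1782 of 2486 members (71.7%) were at least 20 points below the wild-type UHRF1 rescue, beside 57.0% of all sites, and 24 (0.965%, beside 0.966%) were at least 20 points above. All 19 autosomes were lower in the 3KR rescue, by differences from -45.4 to -31.8 points. Only 1.35% of members were over 80% methylated.

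Regions showed the same gap. Of 372 member regions measured in both rescues, the 3KR rescue was below the wild-type UHRF1 rescue in 362, beside 88.3% of all 1880 such regions. It was at least 20 points below in 296, beside 64.8%, and at least 20 points above in 0, beside 0.0%. The median difference was -39.7 points over member regions and -31.7 over all. A test has to borrow the spread of the replicated groups, and was added after the data were seen. With it, edgeR called 66 of 96 regions higher in the wild-type UHRF1 rescue than in Uhrf1-/-, beside 48.1% of all 543 regions. It called 7 of 96 lower in the 3KR than in the wild-type UHRF1 rescue, beside 3.87%, with 52 lower and 0 higher before adjustment (206 and 1 of all 543). The wild-type UHRF1 rescue against wild type gave 0 calls among the 96 and 0 among all 543, with 7 lower and 3 higher before adjustment (28 and 20 of all).

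The regions with the widest gap between rescues were chosen for it and carry no test. The region upstream of Spin1, which encodes a reader of methylated histone tails (chr13:51071417-51071458, 3 sites), was at 66.7% and 77.8% in wild type, then 8.45% and 4.76% without Uhrf1, 100% with wild-type UHRF1 put back and 3.03% in the 3KR rescue. The wild-type UHRF1 rescue was above both wild-type libraries there. A region with no RefSeq match (chr5:53287909-53287998, 3 sites) was at 91.7% and 100% in wild type and 88.9% in the wild-type UHRF1 rescue. The 3KR rescue had 0 methylated of 30 reads in it, which allows up to 10%. A region inside Cdh13, which encodes T-cadherin (chr8:118275640-118275651, 3 sites), had 100% in the wild-type UHRF1 rescue and 11.8% in the 3KR rescue, beside 13.3% and 9.52% in Uhrf1-/-. In all 4, the other being on chromosome 4 (chr4:149809620-149809748), the 3KR value lay between or below the 2 Uhrf1-/- values. The Dusp2 region named above belonged to the same kind, with 93.1% in the wild-type and 3.13% in the 3KR rescue.

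The small excess of the 3KR rescue over Uhrf1-/- was uneven. The median difference over members was 0 points, beside the mean of 7.28. With 10 reads in all 3 libraries, 283 of 1375 members (20.6%) were at least 20 points above the Uhrf1-/- mean, beside 15.8% of all sites, and 58 (4.22%, beside 2.8%) were at least 20 points below. Without Uhrf1-/- library 2, 452 of 1967 members (23.0%, beside 17.4%) were that much above. Of 199 regions, 113 lay above both Uhrf1-/- libraries (50.5% of all 1060 regions did) and 36 below both (14.4%), with a median of 4.66 points beside 2.12 over all. Of the 199, 38 were at least 20 points above the mean, beside 11.2% of all regions, and 3 at least 20 points below, beside 0.472%. With the borrowed spread edgeR called 0 of 96 regions in either direction, beside 0.184% of all regions higher, with 3 lower and 4 higher before adjustment (10 and 38 of all). By chromosome the excess ran from 0.959 points on chromosome 16 (81 sites) to 13.5 on chromosome 18 (66 sites).

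In a few regions the 3KR rescue stood far above Uhrf1-/-, again as a description of regions chosen for it. The region upstream of a transcript that starts inside Snx2, a sorting nexin gene (chr18:53147731-53147782, 4 sites), was at 8.33% and 12.5% in Uhrf1-/- and at 70.3% in the 3KR rescue. It was at 52.4% in the wild-type UHRF1 rescue, so the order of the rescues was turned there. The region 44141 bp downstream of Fbxo2, which encodes an F-box protein of a ubiquitin ligase (chr4:148204760-148204843, 3 sites), was at 0% and 7.38% in Uhrf1-/-, 61.1% in the 3KR rescue and 85.4% in the wild-type UHRF1 rescue. The region in Acr, the gene of the sperm protease acrosin (chr15:89575596-89575713, 3 sites), was at 21.2% and 8.89%, then 65.0% and 91.7%. The Gm13223 region, here with all 7 of its sites, was at 16.7% and 0% in Uhrf1-/- and at 53.9% in the 3KR rescue. The Epc1 region had 73.3% in the 3KR and 74.7% in the wild-type UHRF1 rescue. With 29 reads over 3 sites in the 3KR rescue, it missed the depth limit of this choice.

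**Figure D3:**
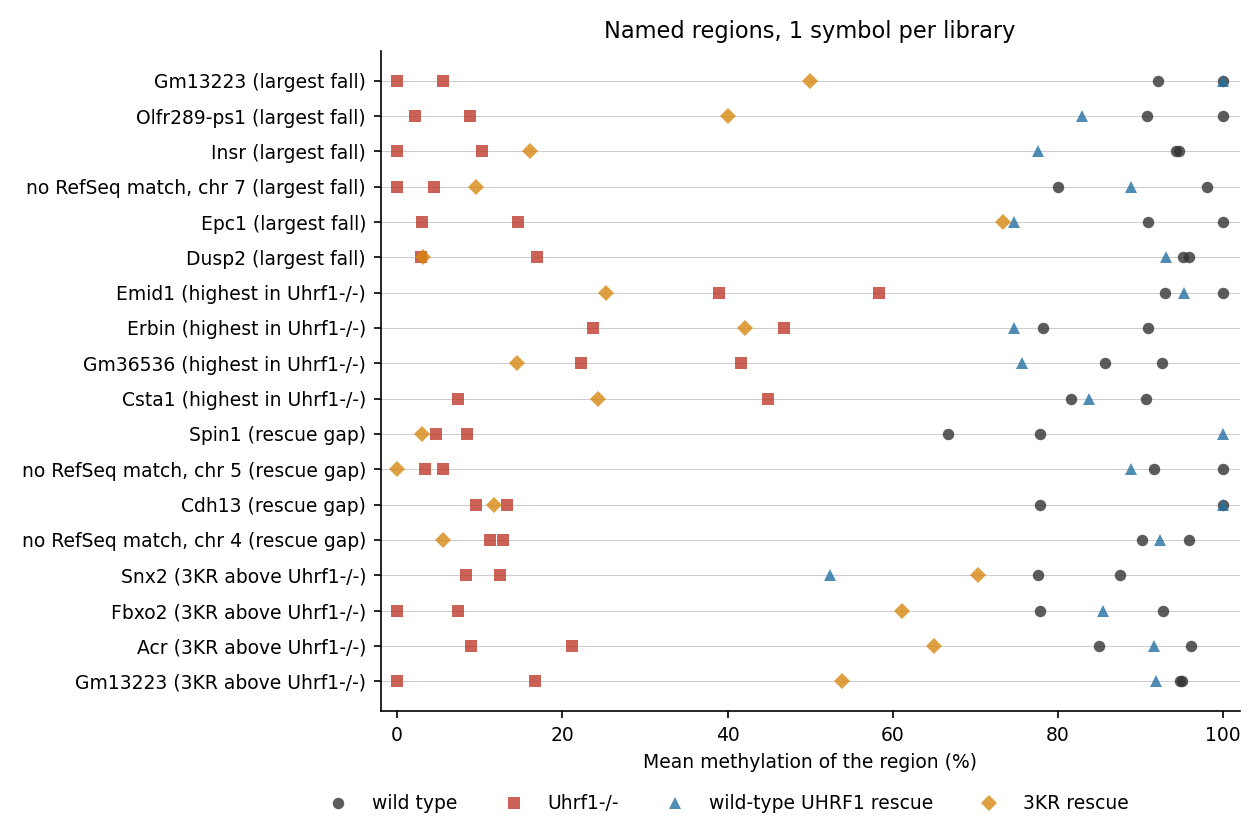
Mean methylation (horizontal axis, percent) of the 18 named regions of the rescue table, 1 symbol per library, grouped by the rule that chose them. In the regions chosen for the rescue gap the 3KR symbols sit at 0 to 11.8%, among or below the Uhrf1-/- symbols, and in those chosen for 3KR above Uhrf1-/- they sit at 53.9 to 70.3%.

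Regions with the most sites give the finest view. The region by a transcript with no RefSeq match on chromosome 4 (chr4:44403710-44403820, 11 sites, 107 to 695 reads per library) was at 88.6% and 80.4% in wild type, then 27.0% and 16.4% without Uhrf1, 73.7% with wild-type UHRF1 put back and 1.91% in the 3KR rescue. The 3KR rescue was below both Uhrf1-/- libraries in it. The region upstream of a transcript that starts inside Gm38494 (chr13:58507233-58507377, 10 sites) was at 73.5% and 68.9%, 18.8% and 12.3%, 66.5% and 6.98% in the same order. The run with the most reads, upstream of a transcript that starts inside Gm2651 (chr6:3201422-3201576, 16 sites), was nearly unmethylated throughout. It was at 5.23% and 3.73% in wild type, then 1.15% and 1.40% without Uhrf1, 5.39% with wild-type UHRF1 put back and 2.70% in the 3KR rescue. It held 5620 to 21704 reads per library, from 6.48% of member reads in wild-type library 2 to 29.3% in Uhrf1-/- library 1. Site means give it the weight of 16 sites, whereas pooled reads give it that share.

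Members differed by where they lay. Wild-type methylation was 61.7% ± 1.34 (SD, n = 2) from 1 to 5 kb of the listed start, 62.9% ± 3.09 from 5 to 10 kb, 65.0% ± 1.48 from 10 to 20 kb and 69.1% ± 0.620 from 20 to 50 kb. Neighbouring bins overlapped between libraries except the last, in which both libraries were above every library of the nearer bins. Uhrf1-/- went from 11.3% ± 0.870 to 13.9% ± 0.251, the wild-type UHRF1 rescue from 55.2% to 62.0% and the 3KR rescue from 17.1% to 21.9%. The share of the difference that the wild-type UHRF1 rescue regained showed no order over the bins, at 87.1%, 88.4%, 83.6% and 87.3%, and for the 3KR rescue it was 11.5%, 14.0%, 15.3% and 14.6%. Upstream members were at 63.4% ± 1.73 and downstream members at 66.5% ± 1.40 in wild type (SD, n = 2 each), both at 12.4% to 12.5% in Uhrf1-/-.

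**Figure D4:**
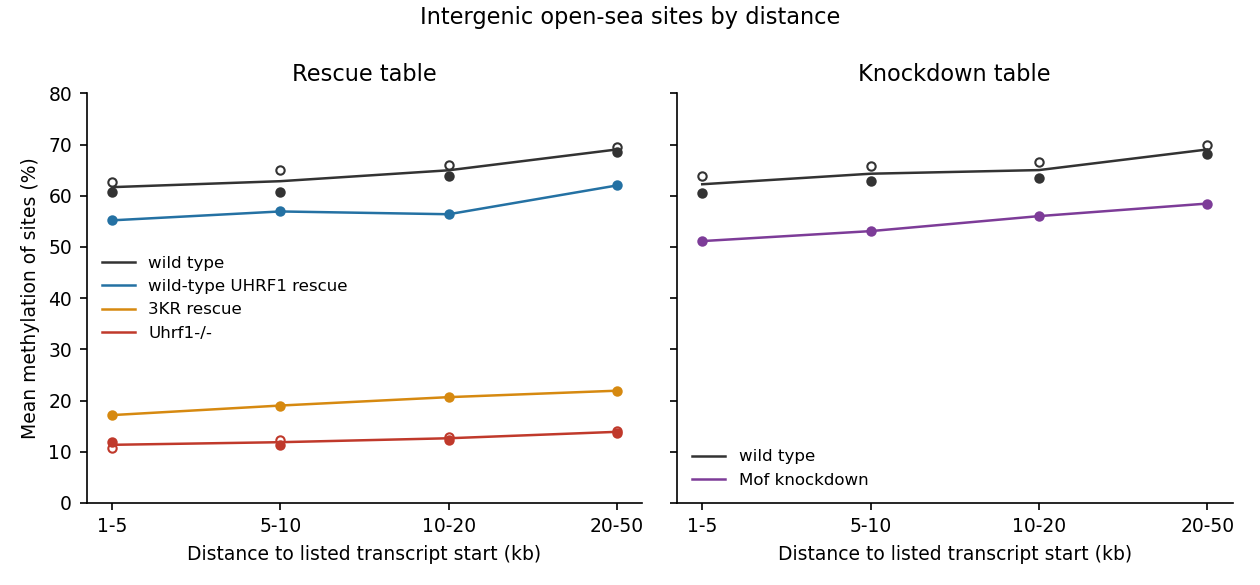
Mean methylation of members (vertical axis, percent) by distance to the listed transcript start (kb), in the rescue table on the left and the knockdown table on the right; lines join group means, and filled and open circles are libraries 1 and 2. Every group is highest in the bin from 20 to 50 kb, where wild type reaches 69.1% and the 3KR rescue 21.9%.

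Members inside a RefSeq gene had the higher shares regained in both rescues. The 417 inside stood at 61.9% ± 2.11 in wild type against 10.4% ± 0.747 without Uhrf1 (SD, n = 2 each), with 57.2% in the wild-type and 19.8% in the 3KR rescue. The 3074 outside were at 65.1% ± 1.52 and 12.7% ± 0.00487, with 57.8% and 19.7%. Shares regained were 90.9% and 18.4% inside and 86.0% and 13.3% outside, and the difference was not tested. Members with 2 or more listed neighbours in their run (2197) regained 87.8% in the wild-type and 14.8% in the 3KR rescue, and members alone (554) 84.0% and 10.4%. Within runs, adjacent members lay a median of 27 bp apart. Across 2023 such pairs Pearson's r of their levels was 0.451 and 0.456 in wild type, 0.450 in the wild-type UHRF1 rescue, 0.408 in the 3KR rescue and 0.283 and 0.261 in Uhrf1-/-. The pairs share reads and libraries, so these values are descriptive.

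Knockdown of Mof went with a smaller loss. In its own table members averaged 63.8% and 66.6% in wild type (65.2% ± 1.98, SD, n = 2) and 54.8% in the knockdown, a mean difference of -10.5 points with a median of -4.66. With methylated reads pooled over members, in which the deep Gm2651 run weighs more, the difference was -5.82 points, and without that run -9.07. In site means the knockdown library was below both wild-type libraries, and the mean difference was several times the gap between them. In pooled reads it was at 54.0% beside 57.1% and 62.6%, a difference about as large as the gap between the wild-type libraries. Without the Gm2651 run the pooled values were 55.4% beside 63.1% and 65.7%. Of 1263 members with 10 reads, 345 (27.3%) were at least 20 points lower, beside 21.2% of all sites, and 62 (4.91%) at least 20 points higher, beside 4.34%. Without wild-type library 1 the counts were 714 lower (32.1%, beside 26.7%) and 150 higher (6.74%, beside 5.58%) of 2224 members. Without wild-type library 2, 139 of 1354 (10.3%, beside 7.54%) were higher. The share of higher members thus differed between these counts, which differ both in the wild-type library used and in the sites with enough reads. Of 1781 members, 192 were lower by that much in wild-type library 2 than in library 1 and 304 were higher, beside 8.91% and 13.9%. All 19 autosomes were lower, by differences from -15.6 points (chromosome 19) to -6.80 (chromosome 12). Sites over 80% methylated fell to 30.4% of members, from 43.3% and 47.7% in wild type.

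The loss was largest in points at members of middle level. Members at 20 to 80% in wild-type library 1 averaged 70.4% in library 2 and 54.8% in the knockdown, a difference of -15.7 points. Members over 80% averaged 85.9% and 74.4%, a difference of -11.5, and members under 20% averaged 15.5% and 10.2%. Chosen on library 2 and compared with library 1, the differences were -12.9, -8.76 and -1.88 points in the same order. By distance the knockdown was at 51.2%, 53.1%, 56.0% and 58.5% in the 4 bins, beside 62.3% to 69.1% in wild type. Inside RefSeq genes it was at 57.5% beside 64.9% ± 1.79, and outside at 54.4% beside 65.3% ± 2.01 (SD, n = 2 each).

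By region the knockdown lay below both wild-type libraries in 118 of 200 member regions, beside 53.7% of all 1068 regions, and above both in 26, beside 12.4%. It was at least 20 points below the wild-type mean in 37, beside 16.3% of all regions, and above in 2, beside 0.562%. The median difference was -6.66 points, and -4.50 over all regions. With the spread of the wild-type libraries borrowed, edgeR called 0 of 200 member regions and 0 of all 1068. Before adjustment (p under 0.05) edgeR had 24 member regions lower and 4 higher, and 95 and 15 of all. No single region was shown to have changed.

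**Figure D5:**
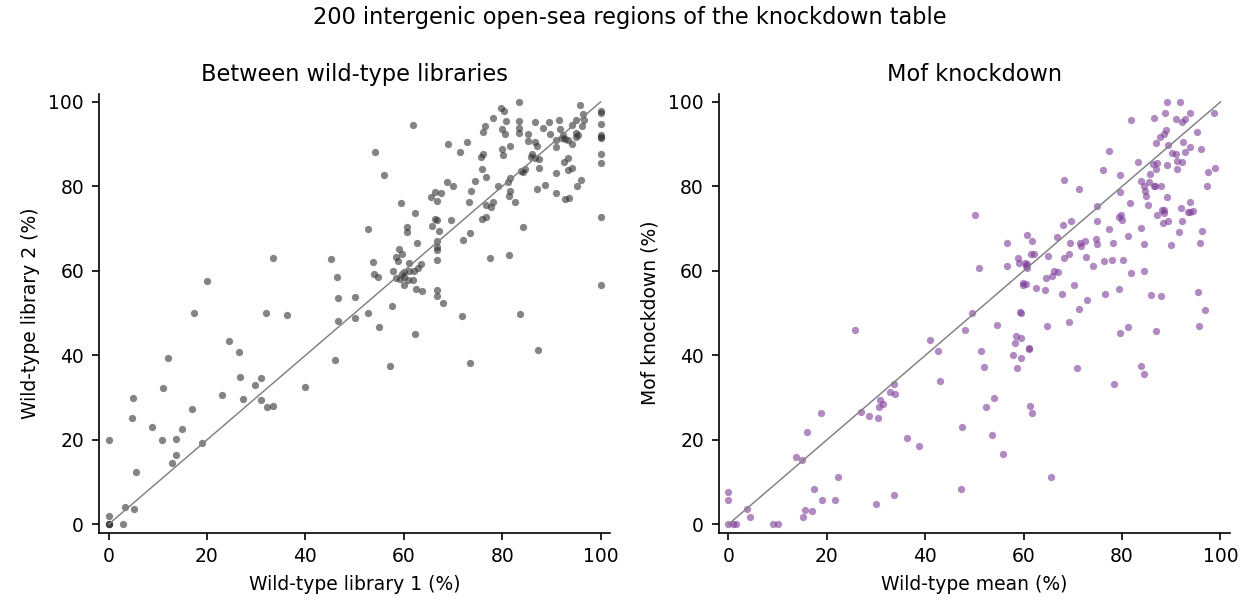
The 200 member regions of the knockdown table, with wild-type library 2 against library 1 on the left and the Mof knockdown against the wild-type mean on the right (percent methylated on all axes; the line marks equal values). On the right 37 regions lie at least 20 points below the line and 2 at least 20 points above it.

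The regions furthest from wild type in the knockdown are described without a test, having been chosen for it. The region 16567 bp upstream of Pacsin2, which encodes a membrane-shaping protein of endocytosis (chr15:83481172-83481255, 3 sites, 36 to 65 reads), was at 60.6% and 70.4% in wild type and 11.1% in the knockdown. The region with 11 sites on chromosome 4 was at 88.6% and 80.4% in wild type and 35.5% in the knockdown, with 174 to 307 reads per library. That region is the one that stood at 1.91% in the 3KR rescue, and both comparisons share the wild-type libraries. The region by Gal, the gene of the neuropeptide galanin (chr19:3409130-3409230, 3 sites), was at 100% and 91.4%, then 47.0%. Above wild type were regions by Tacc1, a gene of a centrosomal protein (46.7% and 53.5%, then 73.2%), and by Chd3, a chromatin remodeller of the NuRD complex (12.0% and 39.5%, then 46.1%). The third was in Gm3973 (81.7% and 82.0%, then 95.8%). The wild-type libraries of the Chd3 region differed by more than the knockdown did from the higher of them.

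The tables shared 2397 members, 68.7% of those in the rescue table and 52.2% of those in the knockdown table, with identical wild-type reads. At these the libraries averaged 64.2% and 66.9% in wild type, 55.4% in the Mof knockdown, 58.9% in the wild-type UHRF1 rescue, 20.2% in the 3KR rescue and 12.6% in each Uhrf1-/- library. The Mof knockdown and the wild-type UHRF1 rescue, both below wild type, were close to each other in mean, and the 3KR rescue was far below both.

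Few members had, as their nearest listed gene, one with a known tie to methylation or cell state. Of 30 germline genes that methylation is known to silence, 1 had members in the rescue table: Dazl, a germ-cell RNA-binding protein gene, with 6 sites 10.8 kb upstream (chr17:50304409-50304550). These were at 83.3% and 66.7% in wild type, then 22.2% and 36.7% without Uhrf1, 77.1% with wild-type UHRF1 put back and 13.1% in the 3KR rescue. Of 23 pluripotency genes 3 had members in each table. The 4 sites upstream of a transcript that starts inside Klf5, a self-renewal factor gene (chr14:99296174-99296221), were at 52.7% and 58.2% in wild type. In Uhrf1-/- they were at 0% in both libraries (32 and 80 reads, which allow up to 9.38% and 3.75%). They stood at 19.6% in the wild-type UHRF1 rescue and 12.5% in the 3KR rescue. The wild-type UHRF1 rescue stayed below both wild-type libraries there. The 5 Klf5 members of the knockdown table were at 45.5% and 46.5% in wild type and 26.7% in the knockdown. The 4 members assigned to Zfp42, a pluripotency marker also called Rex1, lay 45600 to 45747 bp downstream of its listed start. They were at 16.7% and 19.7% in wild type and 7.14% in the knockdown, with 23 to 78 reads per library. Members by Dppa3, a gene that protects methylation in the zygote, were at 0% and 33.3% in wild type over 2 sites in the rescue table. The 1 Dppa3 site of the knockdown table, with 6 to 36 reads per library, was at 0% and 16.7% in wild type and at 40% in the knockdown. The 0% was 0 of 6 reads, which allows up to 50%, so these counts do not settle a rise.

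The other lists were thinner. Of 40 lineage transcription factors, 2 had a member each in the rescue table (Gata3 and Nkx2-5), and 3 had 8 in the knockdown table (Hoxb13, Nkx2-5 and Runx1). The single Gata3 site lay 41023 bp downstream of the start of a transcript that begins inside Gata3, with 6 to 14 reads per library. It was at 100% in both wild-type libraries, 0% and 50% without Uhrf1, 85.7% with wild-type UHRF1 put back and 100% in the 3KR rescue. The single Nkx2-5 site was at 63.6% and 57.6% in wild type, 0% and 25% without Uhrf1, 66.7% with wild-type UHRF1 put back and 0 of 6 reads in the 3KR rescue, which allows up to 50%. The 3KR rescue thus stood at opposite ends of the scale at these sites. Of 30 imprinted genes, 1 had members, in the knockdown table: Dlk1, a paternally expressed growth regulator, with 2 sites, 16607 and 29980 bp upstream. They averaged 57.5% and 45.0% in wild type and 97.2% in the knockdown, with 28 to 46 reads per library. Of 13 genes of the methylation machinery, 1 had members, also in the knockdown table: Kat8 itself, with 2 sites 1.4 kb upstream of its start at 83.3% and 95.4% in wild type and 78.6% in the knockdown (13 to 44 reads per library). No list of these had enough members for a statement about the group.

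Beside other open-sea classes the members held no separate place. In wild type they were at 64.7% ± 1.59, intergenic open-sea sites beyond 50 kb at 64.0% ± 0.292, introns at 65.3% ± 1.26, exons at 67.5% ± 1.22 and promoters at 52.5% ± 1.77 (SD, n = 2 each). The share left in Uhrf1-/- was 19.2%, 20.1%, 20.2%, 19.6% and 18.2% in that order, and the share regained by the 3KR rescue 13.9%, 11.2%, 14.6%, 14.1% and 14.0%. The Mof knockdown difference was -10.5 points at members, -8.89 beyond 50 kb, -11.3 in introns, -11.3 in exons and -10.8 in promoters. All sites outside the set, other classes included, together averaged 45.4% ± 1.17 (SD, n = 2) in wild type.

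The authors' deposited table carries q-values against wild type from reads. At a q under 0.05 and 20 points, the authors' deposited table had 2783 members (79.7%, beside 61.3% of all sites) lower in Uhrf1-/- and 7 higher, beside 0.269%. For the 3KR rescue the authors' deposited table had 2460 (70.5%, beside 53.5%) lower and 15 (0.430%, beside 0.935%) higher. For the wild-type UHRF1 rescue the authors' deposited table had 659 (18.9%, beside 13.5%) lower and 191 (5.47%, beside 6.54%) higher. For the Mof knockdown the authors' deposited table had 688 (15.0%, beside 12.3%) lower and 86 (1.87%, beside 1.98%) higher. The test behind these q-values is not given in the sources used here.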

How the data were processed

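The data were RRBS read counts per cytosine in 7 libraries. The submitters' processing notes name build mm10, BSMAP 2.73, Trim Galore and cutadapt; the methylation caller is not given in the sources used here. Columns of the deposited tables give counts of total, methylated and unmethylated reads and the fraction methylated per site, and, per the file headers, the authors' p-value, q-value and difference as percent points against wild type. Percentages were recomputed here from the counts; the deposited fraction and p-value columns entered no test. The column read as the wild-type UHRF1 rescue was matched by its name, whose last digit is unexplained; every value of that rescue rests on this match.

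Members were rows annotated intergenic, outside islands and shores, under 50 kb from the listed start. Members, lists and rules were chosen with earlier results of these data known. edgeR 4.0.16 (quasi-likelihood, Benjamini-Hochberg, R 4.3.3) was fitted to methylated and unmethylated counts of all sites with 10 reads and to sums per region, with the spread from all libraries of the table. limma 3.58.1 was an alternative. Named regions were the 6 called ones with the largest fall without overlap, the 4 highest in Uhrf1-/-, the 4 with the widest rescue gap, the 4 with 3KR furthest above Uhrf1-/-, the 3 furthest below and 3 furthest above wild type in the Mof knockdown, and up to 3 with the most sites. Sequences and names came from RefSeq (GRCm38.p6). Replicate libraries differed beyond sampling: the chi-square per degree of freedom was 2.95 in wild type and 2.13 in Uhrf1-/-. Python 3.11.15, pandas 2.3.3, numpy 2.4.6, scipy 1.17.1 and matplotlib 3.10.9 did the rest. Alternatives were coverage minimum, pooled reads, 1 value per region, the size limit, gaps, fewer libraries, a replicate block and each library left out.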

Additional observations from a re-analysis of the deposited data

How the results depend on the processing

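Over 75 alternatives, 42 kept the value within the set margin and 33 moved it. For means the margin came from the spread of library means, or from counting error where neither group had replicates. For counts it was set on the raw number, although the sites with enough reads changed with the setting. Thus 2655 of 3491 members beside 1202 of 1545 counted as moved, so a moved count need not mean a changed share. The means kept their direction in 36 of 36. For the counts a reversal was not possible, since each was made in a set direction. Pooling reads gave differences of -48.8 points for Uhrf1-/- against wild type, 42.9 for the wild-type UHRF1 rescue and 7.51 for the 3KR rescue against Uhrf1-/-, -35.4 between rescues and -5.82 for the Mof knockdown. The Gm2651 run alone held 10.5% of the pooled member reads of wild-type library 1 and 2.51% of the knockdown's. Without it (an alternative chosen after seeing the data) the Mof difference was -9.07, the others -51.6, 43.6, 6.38 and -37.2. With 10 reads in every library the gains over Uhrf1-/- were 43.5 and 5.32 points, and with 1 value per region 44.2 and 6.63. At a minimum of 5 reads all members counted, 3491 in the rescue table and 4595 in the knockdown table. Of the 3491, 2655 were higher in the wild-type UHRF1 rescue than in Uhrf1-/- and 943 were lower than in wild type. In the 3KR rescue 817 were higher than in Uhrf1-/-. Of the 4595, 1411 were lower and 393 higher in the Mof knockdown. At this minimum edgeR called 1125 of 3491 member sites (4278 of all 18189) and 429 of 530 member regions (1814 of all 2888) lower. At 30 points, 169 of 1287 members were lower in the wild-type UHRF1 rescue than in wild type. In the 3KR rescue 165 of 1375 were higher than in Uhrf1-/-. Of 1263 members 210 were lower and 25 higher in the Mof knockdown. Shares over all sites were not computed for these size counts, so they show nothing particular to members.

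Leaving out 1 library changed the size counts. In the wild-type UHRF1 rescue 390 of 1401 members (1588 of all 8506 sites) or 779 of 2714 (2909 of all 12983) were lower than in wild type. In the 3KR rescue 380 of 1659 (1483 of all 8559) or 452 of 1967 (1757 of all 10108) were higher than in Uhrf1-/-. In the Mof knockdown 379 of 1354 (1606 of all 7399) or 714 of 2224 (2726 of all 10204) were lower. There 139 (558 of all) or 150 (569 of all) were higher. The number of sites with enough reads changed too, from 1263 for the Mof counts to 1354 and 2224. For edgeR site calls the range was 0 to 2, against 357 with all libraries.

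With the replicate number as a block, edgeR called 131 of 750 member sites (540 of all 4603) and 88 of 110 member regions (372 of all 659). Without the block in the same 4 libraries it called 325 member sites (1356 of all) and 92 member regions (384 of all). Site by site, same-numbered libraries did not deviate together (r = 0.0153 over 4603 sites). Counting error weighs on such differences at these depths, so the value cannot settle whether the numbers are a pairing. The labels do not say.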

Other observations

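Both cytosines of a CpG were listed for only 3 CpGs in the rescue table and 15 in the knockdown table. At the 15 pairs the strands differed by a mean of 31.6 and 28.9 points in the wild-type libraries and 28.9 points in the Mof knockdown, so hemimethylation could not be read from these tables.

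On chromosome X the 22 members of the rescue table averaged 69.5% and 69.4% in wild type, then 16.2% and 15.6% without Uhrf1, 61.7% with wild-type UHRF1 put back and 19.9% in the 3KR rescue. The 37 members on chromosome X in the knockdown table averaged 61.5% and 71.3% in wild type and 61.0% in the knockdown. The 13 members on chromosome Y averaged 69.8% and 74.9% in wild type and 63.2% in the knockdown.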
